A study of Mus musculus with 12 samples.

Results

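DNA replication and S phase genes were followed in ventricular tissue of C57BL/6 mice of both sexes after hypoxia or normoxia. The set holds 36 genes named for their part in copying the genome, among 39210 genes in the deposited table, and all 36 were found there by symbol. Of these, 34 passed the filter on low counts and were tested together with 13960 genes in all. Hypoxic males and hypoxic females (3 libraries each) were in a chamber in which oxygen was lowered by 1% a day over 14 days to 7%, where it was held for 2 weeks. Normoxic males and normoxic females (3 libraries each) stayed in room air at 20.9% oxygen for 4 weeks. The mice carried no transgene or allele that the labels name, and their age is not given in the sources used here. Frozen ventricular tissue was used, with no statement of which ventricle it came from, and nothing says that each library came from a separate animal, so p-values measure the spread between these libraries.

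Before a cell enters S phase, the origin recognition complex with CDC6 and CDT1 loads the MCM helicase onto DNA, a step called licensing. CDC45 and the GINS complex then join the helicase and origins fire, and polymerases copy both strands on the sliding clamp PCNA while new nucleosomes are assembled behind the fork. Many of the genes for these proteins are transcribed by E2F factors late in G1. Adult heart muscle cells rarely enter S phase, whereas the other cells of the heart can divide, and a bulk library mixes them all. In such tissue, a lower level from fewer cells of a type cannot be told apart from less RNA per cell.

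Because E2F factors are known regulators of these genes, the promoter windows of the members (250 bases before to 50 bases after a gene's start, from RefSeq, build GRCm38.p6) were searched for the E2F-type letters TTTCCCGC, TTTGGCGC, TTTCGCGC and TTTGCCGC on both strands. A window was found for 31 of the 36 members. At least 1 of the 4 words was present in 15 of these 31 genes (48.4%), against 2.6% of all 27025 genes with a window. Among the members that rose in hypoxia (described below), 6 of 11 held one, namely Mcm6, Mcm7, E2f2, E2f7, Uhrf1 and Clspn, and among tested members that did not pass, 7 of 18 did, as did both untested members. With the words shortened to 7 letters by leaving out the first T, 22 of 31 members held a match (71.0%), against 10.9% of all genes. The letters CCAAT, a common promoter element, were in 22 of 31 members (71.0%) and in 41.1% of all genes, and TTTGAA, a cell cycle promoter element, was in 5 of 31 members (16.1%) and in 20.2% of all genes. These matches are descriptions of letters in the windows and not measured binding. The windows of the 4 genes with the smallest adjusted p among risers with a match are printed below, 5′ to 3′ on each gene's strand, with the E2F-type letters in capitals (a run such as GCGGGAAA is a word read on the opposite strand).
E2f7, chr10:110745189-110745488, plus strand: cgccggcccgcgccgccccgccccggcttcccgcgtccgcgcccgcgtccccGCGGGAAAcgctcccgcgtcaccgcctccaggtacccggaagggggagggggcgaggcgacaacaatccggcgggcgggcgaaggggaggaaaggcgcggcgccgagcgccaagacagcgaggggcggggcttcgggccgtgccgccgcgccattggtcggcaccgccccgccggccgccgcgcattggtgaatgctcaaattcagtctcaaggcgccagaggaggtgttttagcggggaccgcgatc
Clspn, chr4:126556730-126557029, plus strand: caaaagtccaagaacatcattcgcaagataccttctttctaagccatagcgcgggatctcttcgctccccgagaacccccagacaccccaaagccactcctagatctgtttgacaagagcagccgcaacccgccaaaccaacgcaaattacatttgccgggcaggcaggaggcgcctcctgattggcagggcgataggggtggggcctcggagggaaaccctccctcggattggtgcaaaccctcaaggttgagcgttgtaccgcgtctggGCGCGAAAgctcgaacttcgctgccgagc
Uhrf1, chr17:56304063-56304362, plus strand: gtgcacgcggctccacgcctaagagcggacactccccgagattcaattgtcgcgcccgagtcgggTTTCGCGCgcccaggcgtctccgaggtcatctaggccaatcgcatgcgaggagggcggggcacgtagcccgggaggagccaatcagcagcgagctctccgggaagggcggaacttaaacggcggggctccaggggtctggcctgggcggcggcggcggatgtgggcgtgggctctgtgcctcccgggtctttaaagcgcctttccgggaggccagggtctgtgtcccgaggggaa
Mcm6, chr1:128359656-128359955, minus strand: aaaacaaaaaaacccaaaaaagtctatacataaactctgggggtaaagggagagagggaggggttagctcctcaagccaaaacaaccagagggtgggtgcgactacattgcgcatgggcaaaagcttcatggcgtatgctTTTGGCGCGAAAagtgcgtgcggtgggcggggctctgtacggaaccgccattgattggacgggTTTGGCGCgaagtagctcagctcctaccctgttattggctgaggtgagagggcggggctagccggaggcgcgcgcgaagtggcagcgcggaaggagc
The matched letters begin 198 bases before the annotated start in E2f7 and 185 bases before it in Uhrf1, while in Clspn they lie 21 bases after it. Mcm6 held 3 matches, of which the 2 farthest from the start overlap and read as 1 run of 12 capitals, and the last begins 47 bases before the start.

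Library depth ranged from 14915830 to 19397851 estimated counts, of which the 36 members together made 2158 to 4246. A count of 3, taken as the floor, was worth 0.143 to 0.199 CPM, the unit of level used below (counts scaled to TMM-corrected library sizes). All 10 cardiomyocyte markers were detected in every library, with summed levels of 48230 to 71670 CPM in hypoxia and 61430 to 70460 CPM in normoxia. Male hypoxia libraries 2 and 3 stood apart from male hypoxia library 1 by atrial cardiomyocyte markers, summing to 2575 and 1779 CPM against 1116 CPM, and by fat cell markers, summing to 22.1 and 16.7 CPM against 1.13 CPM. Female hypoxia library 3 summed to 1593 CPM of atrial markers. The mean log2 CPM of the 6 tested atrial markers was 7.00 and 6.60 in male hypoxia libraries 2 and 3 and 4.50 in female hypoxia library 3. Female normoxia library 3 had the lowest mean level of the members of all 12 libraries, and female hypoxia library 1 the lowest of the 6 hypoxia libraries. Counts are therefore also given without these male libraries.

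Levels per length, in the deposited TPM, placed most members low. Pcna, the sliding clamp, was the most abundant member at a mean of 21.2 TPM over the 12 libraries, followed by Pold1, the catalytic subunit of polymerase delta, at 4.89 TPM and Mcm7 at 4.30 TPM. The median member was at 1.08 TPM, against 3.66 TPM for the median gene tested, and 17 of 36 members averaged under 1 TPM. The lowest were Orc1, the largest subunit of the origin recognition complex, at 0.107 TPM and Mcm5 at 0.0558 TPM, and these are the pair that failed the filter.

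In hypoxia, averaged over the sexes, 11 of 34 tested members rose and none fell. They were Mcm6, Mcm7, Mcm10, Rrm2, E2f1, E2f2, E2f7, Uhrf1, Chaf1a, Chaf1b and Clspn. Of all genes tested, 15.0% rose and 12.9% fell, against 32.4% of the tested members that rose. The log2 fold change was positive in 28 of 34 members, with a median of 0.49, against a median of −0.01 over all genes tested. By the roles assigned here, 3 of 3 chromatin assembly genes, 3 of 6 genes of S phase entry and 0 of 7 genes of DNA synthesis passed. Without male hypoxia libraries 2 and 3, 3 of 35 tested members rose (E2f1, E2f7 and Clspn), or 8.57% against 5.41% of all 14663 genes tested there. That fit kept 1 male hypoxia library, so its count of calls cannot show whether the members' share differs from that of all genes. In it the 11 log2 fold changes ran from 0.25 for Mcm7 to 1.80 for Clspn, against 0.32 and 1.89 with all libraries. Mcm10 was 1.52 (1.39 with all libraries) and Mcm6 0.58 (0.55), while Rrm2 was 0.68 (0.94) and Uhrf1 0.82 (1.08). Leaving out any single library gave 9 to 13 members. On log2 TPM 16 of 34 members rose (47.1% against 31.5% of all genes), namely the 11 and Cdt1, Mcm3, Gins2, Rrm1 and Dtl. That scale was not TMM-corrected, and on it the median of all genes lay 0.30 higher than with edgeR on counts. Relative to that shift Rrm1 was 0.25 (0.24 with edgeR), Cdt1 0.53 (0.59), Mcm3 0.75 (0.53), Gins2 1.53 (0.66) and Dtl 0.51 (1.26).

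**Figure D1:**
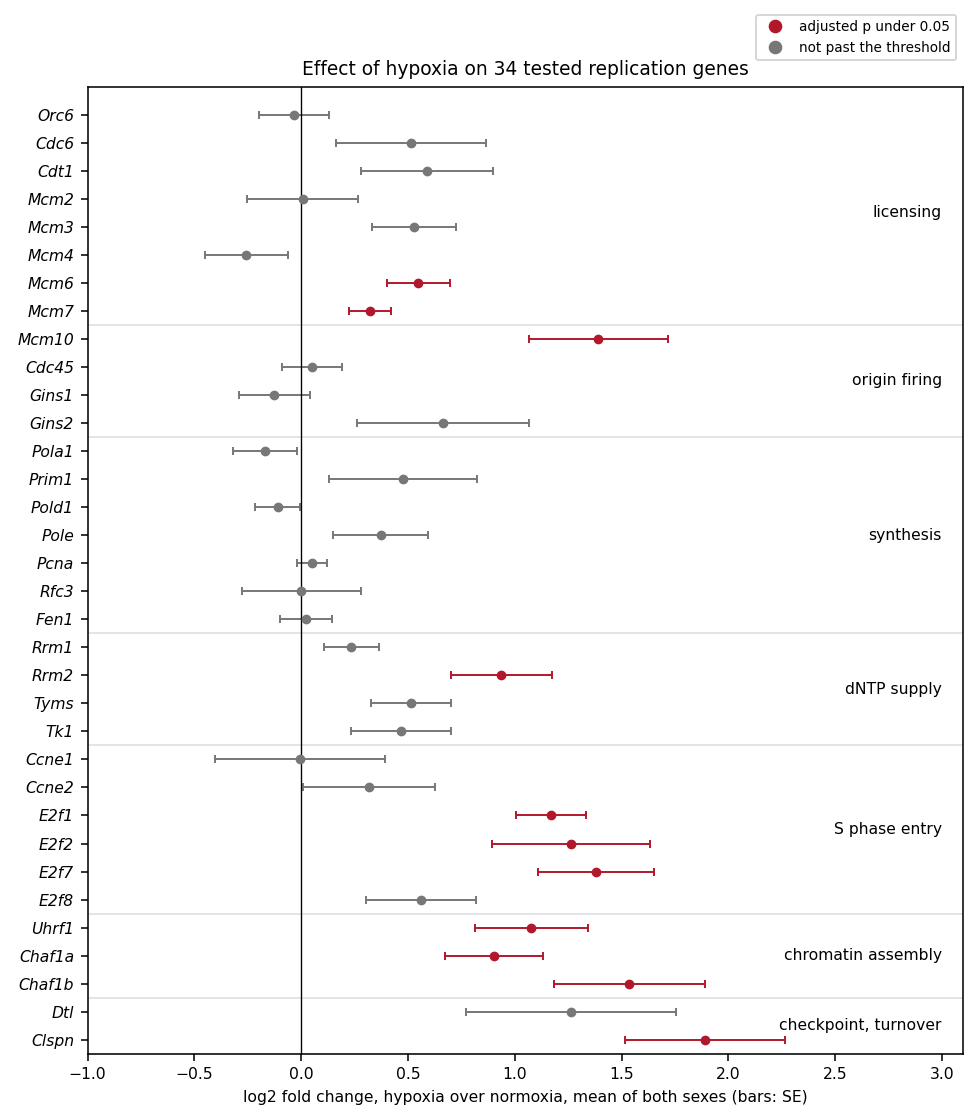
Log2 fold change in hypoxia over normoxia, averaged over the sexes (x axis, with the SE as bars), for the 34 tested members grouped by role (y axis). Red points mark the 11 members that passed, which lie between 0.32 for Mcm7 and 1.89 for Clspn, and the 7 synthesis genes lie between −0.17 and 0.48.

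E2F factors and the E cyclins govern entry into S phase. E2f1, an activating E2F, had 4.44, 6.2 and 4.64 CPM in hypoxic males, against 1.95, 2.28 and 1.62 CPM in normoxic males. In females E2f1 had 4.26, 5.81 and 5.1 CPM in hypoxia, against 2.77, 2.98 and 2.03 CPM in normoxia. All 6 hypoxia libraries lay above all 6 normoxia libraries, and the averaged log2 fold change was 1.17 ± 0.16 (adjusted p = 0.000867), the smallest adjusted p among the members. E2f1 also passed in each sex, with a log2 fold change of 1.38 in males (adjusted p = 0.00515) and 0.96 in females (adjusted p = 0.0362). The male call was kept in all 12 fits that left out 1 library and the female call in 6 of them, with adjusted p up to 0.148, and the female call was also lost with transcript length offsets, with no filter and with female libraries alone.

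E2f7, an atypical E2F that represses E2F targets, had 5.23, 3.38 and 4.28 CPM in hypoxic males, against 1.51, 2.5 and 0.971 CPM in normoxic males. In females E2f7 had 4.2, 7.12 and 7.7 CPM in hypoxia, against 2.45, 1.46 and 3.27 CPM in normoxia. Here too no hypoxia library overlapped a normoxia library, and the log2 fold change was 1.38 ± 0.27 (adjusted p = 0.00439). With transcript length offsets the averaged value was 1.15 (adjusted p = 0.0425), which passed, and the call in males was lost. The effective length of E2f7 was 4598 to 4929 bases in hypoxic males and 2575 to 4605 bases in normoxic males. E2f2, another activator, had 1.59, 1.76 and 2.14 CPM in hypoxic males, against 0.755, 0.544 and 0.648 CPM in normoxic males. Its values in females were 1.07, 1.7 and 2.45 CPM in hypoxia, against 1.55, 0.76 and 0.247 CPM in normoxia, so the groups were separate in males and overlapped in females. Its log2 fold change was 1.26 ± 0.37 (adjusted p = 0.0259), and it passed in 6 of the 12 fits that left out 1 library, with adjusted p up to 0.0737 in the others.

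E2f8, the partner of E2F7 in repression, did not pass (0.56 ± 0.26, adjusted p = 0.125). The E cyclins, which activate CDK2 at the start of S phase, did not pass either. Ccne1 had 0.993, 0.81 and 1.84 CPM in hypoxic males, against 0.88, 1.85 and 1.36 CPM in normoxic males. In females Ccne1 had 1.01, 1.15 and 0.885 CPM in hypoxia, against 1.48, 0.994 and 0.247 CPM in normoxia. Ccne2 had 1.72, 1.14 and 2.5 CPM in hypoxic males, against 2.52, 2.39 and 1.17 CPM in normoxic males. In females Ccne2 had 1.66, 2.36 and 2.19 CPM in hypoxia, against 1.67, 1.29 and 0.555 CPM in normoxia. Hypoxia and normoxia libraries overlapped in both sexes for both cyclins, and the log2 fold changes were 0.00 (95% interval −0.88 to 0.87) for Ccne1 and 0.32 (−0.36 to 0.99) for Ccne2, intervals wide enough to hold a rise of the size seen for Mcm6.

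**Figure D2:**
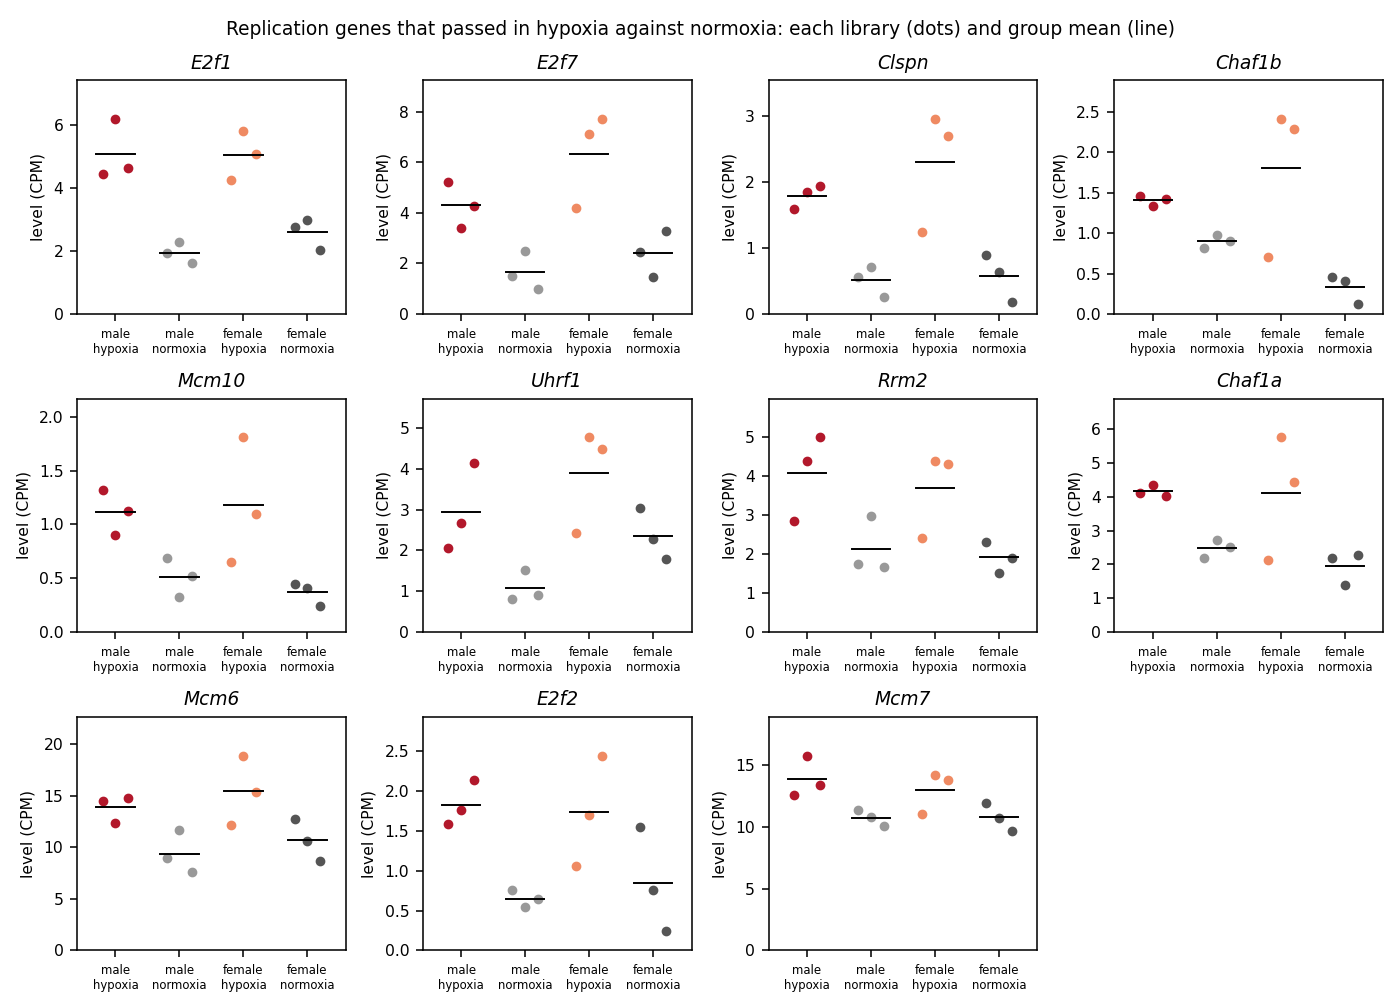
Level in CPM (y axis, from 0) in each of the 12 libraries (dots, replicates 1 to 3 from left to right) with the group mean (line), for the 11 members that passed, ordered by adjusted p. E2f1, E2f7 and Clspn show no overlap between hypoxia and normoxia, and female hypoxia library 1 is the lowest hypoxic female in all 11.

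All 3 members grouped here under chromatin assembly passed, Uhrf1 among them. Of 13 chromatin genes tested outside the members, 3 rose and 1 fell, so the grouping matters to this count. Chaf1a encodes the large subunit of chromatin assembly factor 1, which places new histones behind the fork, and had 4.11, 4.34 and 4.03 CPM in hypoxic males, against 2.2, 2.72 and 2.53 CPM in normoxic males. In females Chaf1a had 2.13, 5.75 and 4.42 CPM in hypoxia, against 2.19, 1.4 and 2.28 CPM in normoxia. Males were separate, while female hypoxia library 1 lay among the normoxic females, and the log2 fold change was 0.90 ± 0.23 (adjusted p = 0.0138). Chaf1b, the middle subunit of the same factor, had 1.46, 1.33 and 1.43 CPM in hypoxic males, against 0.818, 0.979 and 0.907 CPM in normoxic males. In females Chaf1b had 0.71, 2.41 and 2.29 CPM in hypoxia, against 0.451, 0.409 and 0.123 CPM in normoxia. The groups did not overlap within either sex, and the averaged log2 fold change was 1.54 ± 0.35 (adjusted p = 0.00868). In females alone it was 2.44 ± 0.52 (adjusted p = 0.0260), on 12 to 44 estimated counts a library in hypoxia and 2 to 7 in normoxia, and in males alone it was 0.64 ± 0.47 (adjusted p = 0.380). Uhrf1 binds hemimethylated DNA behind the fork and recruits the maintenance methyltransferase. It had 2.05, 2.67 and 4.13 CPM in hypoxic males, against 0.818, 1.52 and 0.907 CPM in normoxic males. In females Uhrf1 had 2.43, 4.77 and 4.48 CPM in hypoxia, against 3.03, 2.28 and 1.79 CPM in normoxia. Hypoxia and normoxia were separate in males and overlapped in females, and the log2 fold change was 1.08 ± 0.26 (adjusted p = 0.0118). Without male hypoxia libraries 2 and 3 the 3 values were 0.90 for Chaf1a, 1.56 for Chaf1b and 0.82 for Uhrf1, with adjusted p of 0.0903, 0.0616 and 0.124. With transcript length offsets Uhrf1 was 1.81 (adjusted p = 0.00821).

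Clspn encodes claspin, which travels with the fork and carries the checkpoint signal from ATR to CHK1. It had 1.59, 1.86 and 1.94 CPM in hypoxic males, against 0.566, 0.707 and 0.259 CPM in normoxic males. In females Clspn had 1.24, 2.96 and 2.71 CPM in hypoxia, against 0.902, 0.643 and 0.185 CPM in normoxia. No hypoxia library overlapped a normoxia library, and the log2 fold change was 1.89 ± 0.37 (adjusted p = 0.00441). The level rested on 21 to 54 estimated counts a library in hypoxia and 3 to 14 in normoxia, and with offsets for transcript length the call was lost (1.43, adjusted p = 0.147). Dtl, which marks CDT1 for destruction on DNA-bound PCNA, had a log2 fold change of 1.26 ± 0.49 and did not pass (adjusted p = 0.0760).

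Of the licensing genes, 2 of 8 tested rose, both of them MCM subunits. Mcm6 had 14.5, 12.3 and 14.8 CPM in hypoxic males, against 8.93, 11.7 and 7.58 CPM in normoxic males. In females Mcm6 had 12.2, 18.9 and 15.4 CPM in hypoxia, against 12.8, 10.6 and 8.69 CPM in normoxia. The log2 fold change was 0.55 ± 0.15 (adjusted p = 0.0168), with no overlap in males and 1 normoxic female above the lowest hypoxic female. Mcm7 had 12.6, 15.8 and 13.4 CPM in hypoxic males, against 11.4, 10.8 and 10.1 CPM in normoxic males. In females Mcm7 had 11.1, 14.2 and 13.8 CPM in hypoxia, against 12, 10.8 and 9.68 CPM in normoxia. Its change was the smallest of those that passed, at 0.32 ± 0.10 (adjusted p = 0.0303), and it passed in 5 of the 12 fits that left out 1 library.

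The other subunits of the same ring did not pass. Mcm3 had 6.89, 7.24 and 8.36 CPM in hypoxic males, against 5.22, 6.15 and 6.22 CPM in normoxic males. In females Mcm3 had 5.98, 11.7 and 12.1 CPM in hypoxia, against 7.79, 6.43 and 4.13 CPM in normoxia. The log2 fold change was 0.53 ± 0.20 (adjusted p = 0.0648), about the size seen for Mcm6 with a wider error. Mcm2 had 4.57, 5.1 and 7.29 CPM in hypoxic males, against 7.04, 8.38 and 6.67 CPM in normoxic males. In females Mcm2 had 6.51, 10.1 and 8.02 CPM in hypoxia, against 9.15, 7.13 and 2.53 CPM in normoxia. Its change was 0.01 ± 0.26 (adjusted p = 0.989), lower in hypoxia by means in males and higher by means in females, without passing in either. Mcm4 had 5.96, 6.43 and 8.01 CPM in hypoxic males, against 7.73, 10.4 and 6.8 CPM in normoxic males. In females Mcm4 had 3.91, 6.63 and 7.03 CPM in hypoxia, against 8.57, 7.31 and 4.62 CPM in normoxia. Its change was −0.26 ± 0.20 (adjusted p = 0.353), the lowest value of all 34 tested members.

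MCM subunits act as a ring with 1 copy of each of MCM2 to MCM7, so their levels can be set side by side per length. Mean levels over the 12 libraries were 4.30 TPM for Mcm7, 2.88 TPM for Mcm6, 2.09 TPM for Mcm3, 1.38 TPM for Mcm2 and 1.30 TPM for Mcm4. Mcm5 stood apart at 0.0558 TPM, with 0 to 17.2 estimated counts a library and 0 counts in 4 of the 12. Its effective length was 3131 bases in every library, close to the 3121 bases of Mcm2. The cause of the low level of Mcm5 was not tested. The table cannot show whether the counting covered its main transcript, so its value is given as listed and may not be the gene's expression level.

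**Figure D3:**
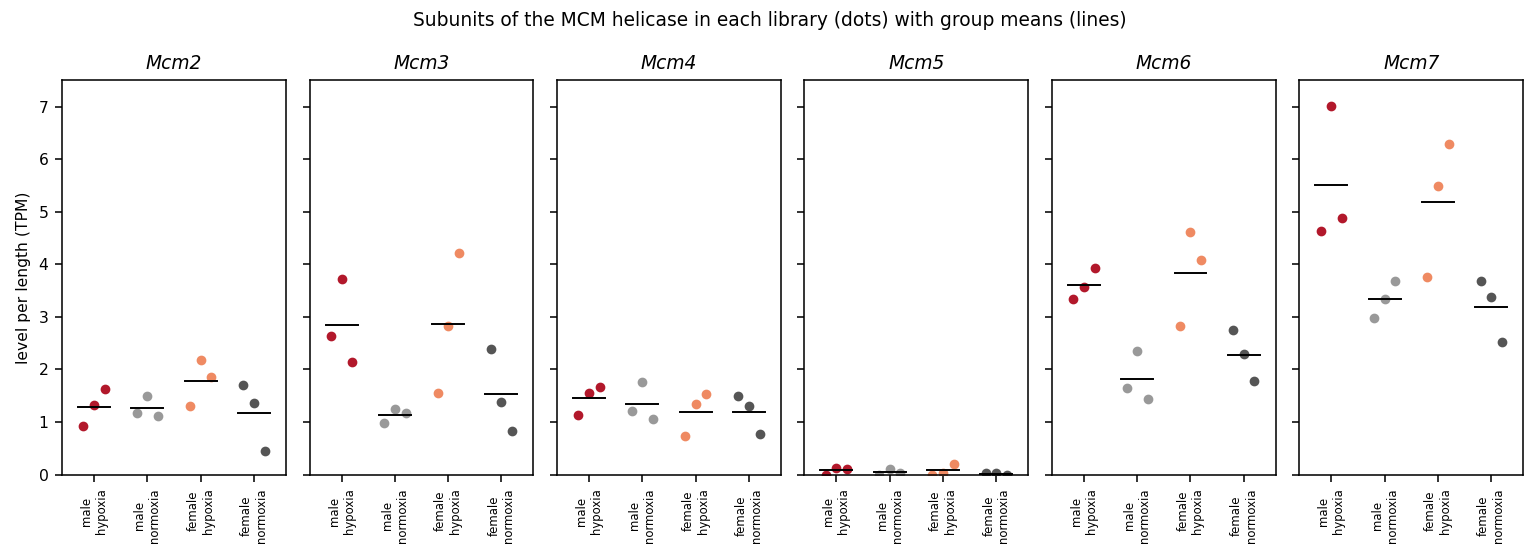
Level per length in the deposited TPM (y axis, from 0) of the 6 subunits of the MCM helicase in each of the 12 libraries (dots) with group means (lines). Mcm5 lies below 0.21 TPM in every library while the other 5 lie between 0.452 and 7.01 TPM.

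The remaining licensing genes did not pass. Cdc6 and Cdt1, which load the helicase, had log2 fold changes of 0.52 ± 0.35 and 0.59 ± 0.31 (adjusted p = 0.294 and 0.173). Orc6, a small subunit of the origin recognition complex, had −0.03 ± 0.16. Orc1 had at most 7 estimated counts in any library and was not tested.

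Among the origin firing genes, 1 of 4 rose. Mcm10, which helps the loaded helicase to open DNA, had 1.32, 0.905 and 1.12 CPM in hypoxic males, against 0.692, 0.326 and 0.518 CPM in normoxic males. In females Mcm10 had 0.651, 1.81 and 1.09 CPM in hypoxia, against 0.451, 0.409 and 0.247 CPM in normoxia. The groups did not overlap within either sex, and the log2 fold change was 1.39 ± 0.33 (adjusted p = 0.00964). It rested on 11 to 33 estimated counts a library in hypoxia and 4 to 11 in normoxia. Mcm10 met the filter on low counts through its hypoxia libraries, and it also rose in the fit with no filter. Cdc45 and Gins1, parts of the active helicase, had log2 fold changes of 0.05 ± 0.14 and −0.13 ± 0.17, and Gins2 had 0.66 ± 0.40, none of which passed. For Gins2 the scale mattered, with 1.28 with transcript length offsets (adjusted p = 0.274) and 1.84 on log2 TPM (adjusted p = 0.0406), which passed. The log2 TPM value was 1.53 relative to the shift of all genes. Its effective length ran from 477 to 1367 bases in hypoxia libraries and from 545 to 3650 bases in normoxia libraries.

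None of the 7 synthesis genes passed on average or within a sex with edgeR, and none passed on average with DESeq2 or limma voom. None had an unadjusted p under 0.05 in edgeR either, a level that 40.7% of all genes tested reached on average, 32.6% in males and 24.7% in females. The median log2 fold change of the synthesis genes was 0.02. Pcna had 38.4, 33.5 and 36.2 CPM in hypoxic males, against 38.6, 37.2 and 33 CPM in normoxic males. In females Pcna had 39.1, 44.2 and 38.3 CPM in hypoxia, against 37.9, 34.4 and 40 CPM in normoxia. The libraries overlapped in both sexes and the change was 0.05 ± 0.07, with a 95% interval of −0.10 to 0.20 that leaves out a change as large as that of Mcm7. Fen1, which trims the flaps of Okazaki fragments, had 0.02 (−0.25 to 0.29) and Pold1 had −0.11 (−0.34 to 0.12). In this fit on counts, these intervals leave out the value measured for Mcm6 as well. For Pold1 the value was 0.105 with transcript length offsets and 0.437 on log2 TPM, or 0.135 relative to the shift of all genes. The effective length of Pold1 ran from 1081 to 2321 bases. Pola1, the catalytic subunit of polymerase alpha, had −0.17 (−0.50 to 0.16). Wider intervals were found for Prim1, the primase subunit, at 0.48 (−0.28 to 1.24), for Pole, of the leading strand polymerase, at 0.37 (−0.11 to 0.86), and for Rfc3, of the clamp loader, at 0.00 (−0.61 to 0.61). With transcript length offsets Pole changed sign, to −0.17, without passing.

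Supply of deoxynucleotides depends on ribonucleotide reductase, whose large subunit is Rrm1 and whose S phase small subunit is Rrm2. Rrm2 had 2.85, 4.38 and 5 CPM in hypoxic males, against 1.76, 2.99 and 1.68 CPM in normoxic males. In females Rrm2 had 2.43, 4.38 and 4.32 CPM in hypoxia, against 2.32, 1.52 and 1.91 CPM in normoxia. The groups were separate in females and overlapped by 1 library in males, and the log2 fold change was 0.94 ± 0.24 (adjusted p = 0.0131). Rrm1 had 14.4, 14.4 and 15.8 CPM in hypoxic males, against 13.6, 15.7 and 9.97 CPM in normoxic males. In females Rrm1 had 16.5, 17.5 and 16 CPM in hypoxia, against 13.4, 16.9 and 10.6 CPM in normoxia. Its change was 0.24 ± 0.13 (adjusted p = 0.192). Tyms, which makes thymidylate, had 0.51 ± 0.19 (adjusted p = 0.0623), and Tk1, which salvages thymidine, had 0.47 ± 0.23 (adjusted p = 0.156).

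The alternative small subunit Rrm2b, which serves cells outside S phase and is not a member, fell. It had 14.6, 14.8 and 17.2 CPM in hypoxic males, against 28.2, 21.4 and 23.1 CPM in normoxic males. In females Rrm2b had 17.9, 13.4 and 15.5 CPM in hypoxia, against 24.9, 23.8 and 25.7 CPM in normoxia. The log2 fold change was −0.65 ± 0.09 (adjusted p = 0.000997), with no overlap in either sex. On the log2 TPM scale, where the median of all genes lay 0.30 higher than in the count fit, it was −0.47, or −0.78 relative to that shift. Of the 14 tested genes listed for nucleotide supply outside the members, 4 fell (28.6%, against 12.9% of all genes tested) and none rose. Besides Rrm2b these were Cad, which starts pyrimidine synthesis (−0.51 ± 0.08, adjusted p = 0.00129), Shmt1, which supplies one-carbon units for thymidylate (−0.94 ± 0.16, adjusted p = 0.00193), and Dguok, a mitochondrial deoxyguanosine kinase (−0.43 ± 0.09, adjusted p = 0.00459). On the log2 TPM scale Cad was −0.18, Shmt1 was −1.08 and Dguok was 0.0996, or −0.49, −1.38 and −0.20 relative to that shift. Cad and Dguok did not pass on that scale. With transcript length offsets Dguok did not pass either (−0.21, adjusted p = 0.3097), while Rrm2b, Cad and Shmt1 did.

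Further replication genes were read from lists outside the members, 95 of them tested. In these lists 9 genes rose and 9 fell, 9.47% in each direction. Of all genes tested, 15.0% rose and 12.9% fell. The lists' median log2 fold change was 0.09. Among 35 other replisome genes 4 rose and 3 fell. Dbf4, the activator of the origin firing kinase CDC7, rose (0.88 ± 0.25, adjusted p = 0.0248), as did Lig1, which joins Okazaki fragments (0.55 ± 0.16, adjusted p = 0.0294). Of the 12 fits that left out 1 library, Dbf4 passed in 9 and Lig1 in 6, and Lig1 did not pass with transcript length offsets (adjusted p = 0.0662). Rnaseh2a, which removes ribonucleotides from DNA, fell (−0.42 ± 0.11, adjusted p = 0.0130) but did not pass on log2 TPM (−0.19, adjusted p = 0.577) or with transcript length offsets (−0.54, adjusted p = 0.116). Likewise Orc3, of the origin recognition complex, fell (−0.25 ± 0.07, adjusted p = 0.0194) but was 0.125 on the log2 TPM scale, or −0.18 relative to the shift of all genes. Orc3 also did not pass with transcript length offsets (−0.19, adjusted p = 0.105).

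Among 16 other genes of S phase entry, 2 rose and 1 fell. Cyclin A2, which acts through S phase and into mitosis, had 5.3, 5.1 and 10.4 CPM in hypoxic males, against 1.95, 2.61 and 1.94 CPM in normoxic males. In females Ccna2 had 2.96, 10.4 and 9.73 CPM in hypoxia, against 2.9, 2.34 and 0.987 CPM in normoxia. The log2 fold change of Ccna2 was 1.78 ± 0.35 (adjusted p = 0.00442), and it passed in both sexes. Tfdp1, the DNA-binding partner of E2F factors, rose (0.68 ± 0.21, adjusted p = 0.0301), and E2f6, a repressive E2F, fell (−0.44 ± 0.10, adjusted p = 0.00878). Tfdp1 passed in 4 of the 12 fits that left out 1 library, and E2f6 did not pass on log2 TPM (−0.13, adjusted p = 0.312). Of 13 other chromatin genes 3 rose, namely Ezh2, of the polycomb methyltransferase (0.56 ± 0.15, adjusted p = 0.0173), Slbp, which binds histone mRNA (0.30 ± 0.08, adjusted p = 0.0183), and Asf1b, a histone chaperone (0.68 ± 0.23, adjusted p = 0.0484). Asf1b passed in 1 of the 12 fits that left out 1 library and in 5 of 10 other settings. With transcript length offsets Slbp was 0.14 (adjusted p = 0.286) and Ezh2 was 0.66 (adjusted p = 0.0556), and neither passed. Hat1, a histone acetyltransferase, fell (−0.29 ± 0.07, adjusted p = 0.0148) but was 0.0724 on the log2 TPM scale, or −0.23 relative to the shift. It also did not pass with transcript length offsets (−0.23, adjusted p = 0.09995). None of 17 fork checkpoint genes passed with edgeR, with 6 at an unadjusted p under 0.05 against 40.7% of all genes, and 2 passed with DESeq2 and 2 with limma voom.

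Genes of mitosis, listed for context, rose in 26 of 30 cases (86.7%, against 15.0% of all genes tested). Their median log2 fold change was 1.77, and none fell. Mki67, a marker of cycling cells, averaged 20.9 ± 5.94 CPM in hypoxic males and 5.36 ± 1.35 CPM in normoxic males, and 24.8 ± 8.83 CPM in hypoxic females and 6.88 ± 1.91 CPM in normoxic females (SD, n = 3 each). Prc1, which bundles the midzone of the spindle, had a log2 fold change of 2.05 ± 0.25 (adjusted p = 0.000474). The list's mean log2 level was 1.30 to 2.39 in hypoxia libraries and −0.24 to 0.75 in normoxia libraries, with no overlap, whereas that of the 34 tested replication genes was 1.60 to 2.25 in hypoxia and 0.90 to 1.70 in normoxia, with overlap. The mean levels of both lists were lowest, among hypoxia libraries, in female hypoxia library 1.

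Genes listed for mitochondrial DNA replication, which include factors of mitochondrial transcription, were read for context. Of 12 tested, 7 fell (58.3%, against 12.9% of all genes tested) and none rose, with a median log2 fold change of −0.33. Ssbp1, the mitochondrial single-strand binding protein, had −0.36 ± 0.07 (adjusted p = 0.00439), Tefm, a mitochondrial transcription elongation factor, had −0.47 ± 0.10 (adjusted p = 0.00568), Twnk, the mitochondrial helicase, had −0.50 ± 0.11 (adjusted p = 0.00724), and Tfam, which packages mitochondrial DNA, had −0.30 ± 0.08 (adjusted p = 0.0210). With transcript length offsets Ssbp1, Tefm and Twnk passed and Tfam did not (−0.28, adjusted p = 0.1395). On the log2 TPM scale none of the 12 passed and Tfam was 0.0275, or −0.27 relative to the shift of all genes, and without male hypoxia libraries 2 and 3 none of the 12 passed although the median was −0.33.

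**Figure D4:**
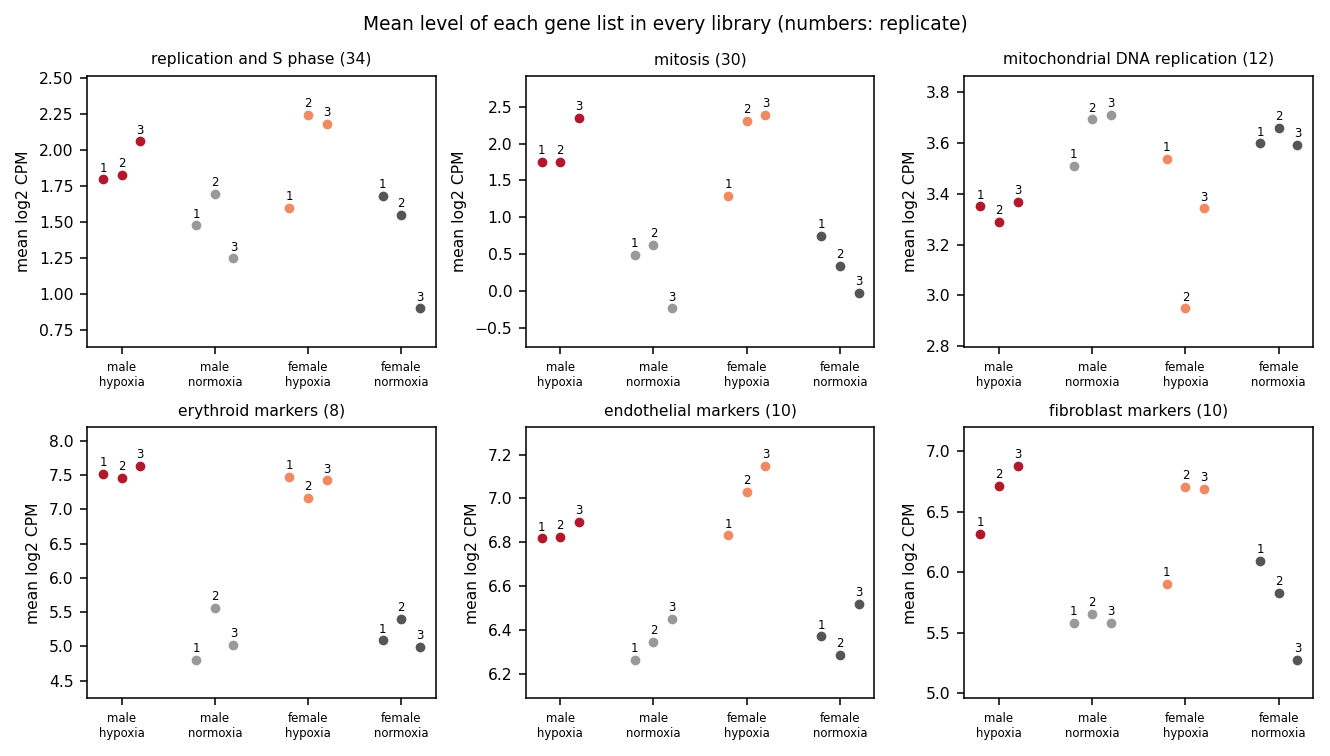
Mean log2 CPM of each gene list (y axis, its own range in each panel) in the 12 libraries, numbered by replicate, with the number of genes averaged in each title. Mitosis genes separate hypoxia from normoxia in every library, replication genes overlap, and mitochondrial DNA replication genes run lower in hypoxia on this CPM scale, with female hypoxia library 1 at 3.54 among the normoxia libraries.

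Markers of other cells of the heart moved in the same comparison, in which 15.0% of all genes tested rose and 12.9% fell. Of 10 endothelial markers 8 rose, with summed levels of 1518 to 2007 CPM in hypoxia and 991 to 1349 CPM in normoxia. Of 10 fibroblast markers 7 rose, with 1712 to 2599 CPM in hypoxia and 1652 to 2032 CPM in normoxia, and of 9 macrophage and monocyte markers 4 rose, with 313.5 to 633.5 CPM in hypoxia and 278.8 to 389.3 CPM in normoxia. None of these 29 genes was at 0 in any library. Of 8 tested erythroid markers 7 rose, with 6832 to 11960 CPM in hypoxia and 1692 to 2310 CPM in normoxia. Of 10 cardiomyocyte markers 2 fell. Of the erythroid list 0 to 3 genes a library were at 0, and Klf1, of red cell precursors, failed the filter. Among tested markers of cell types seen at lower levels or in other layers, 3 of 8 pericyte and smooth muscle genes rose and 1 fell, 5 of 6 atrial genes rose and 1 fell, 2 of 3 mesothelial genes rose, 2 of 5 lymphocyte genes fell, and none of 4 neutrophil, 2 fat cell or 3 Schwann cell genes passed. By sex, 8 fibroblast, 3 macrophage and monocyte and 5 atrial genes rose in males, against 2, 0 and 0 in females. For endothelial and erythroid genes the counts were 4 and 7 in males and 3 and 6 in females. Tested as the female effect minus the male effect, no gene of these lists passed. The mean log2 CPM of atrial genes was 7.00 and 6.60 in male hypoxia libraries 2 and 3, against 4.11 in library 1. Of all genes tested, 8.47% rose in males and 3.97% in females. The part of these cells in the levels of the replication genes was not tested.

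Sexes were then taken apart. In males 4 of 34 members rose (E2f1, E2f7, Uhrf1 and Clspn), or 11.8% against 8.47% of all genes tested, and none fell, against 7.10%. In females 3 rose (E2f1, Chaf1b and Clspn), or 8.82% against 3.97%, and none fell, against 2.02%. Of the 12 fits that left out 1 library, the male call was kept in 5 for E2f7, 8 for Uhrf1 and 3 for Clspn, and the female call in 8 for Chaf1b and 1 for Clspn. These counts moved with the libraries used, since leaving out 1 library gave 1 to 5 members in males and 0 to 10 in females, the 10 without female hypoxia library 1, and leaving out male hypoxia libraries 2 and 3 gave 0 in both. Libraries did not overlap, with hypoxia higher, in 14 members in males (21.5% of all genes tested, 41.2% of members) and in 8 members in females (13.2% and 23.5%). In both sexes this held for Mcm10, E2f1, E2f7, Chaf1b and Clspn, 5 of 34 members (14.7%) against 7.79% of all genes. With hypoxia lower, libraries did not overlap in 1 member in males and 0 in females, against 2760 and 1766 of all 13960 genes. The member was Pola1, at 5.36 to 5.72 CPM in hypoxic males and 6.29 to 6.67 CPM in normoxic males.

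**Figure D5:**
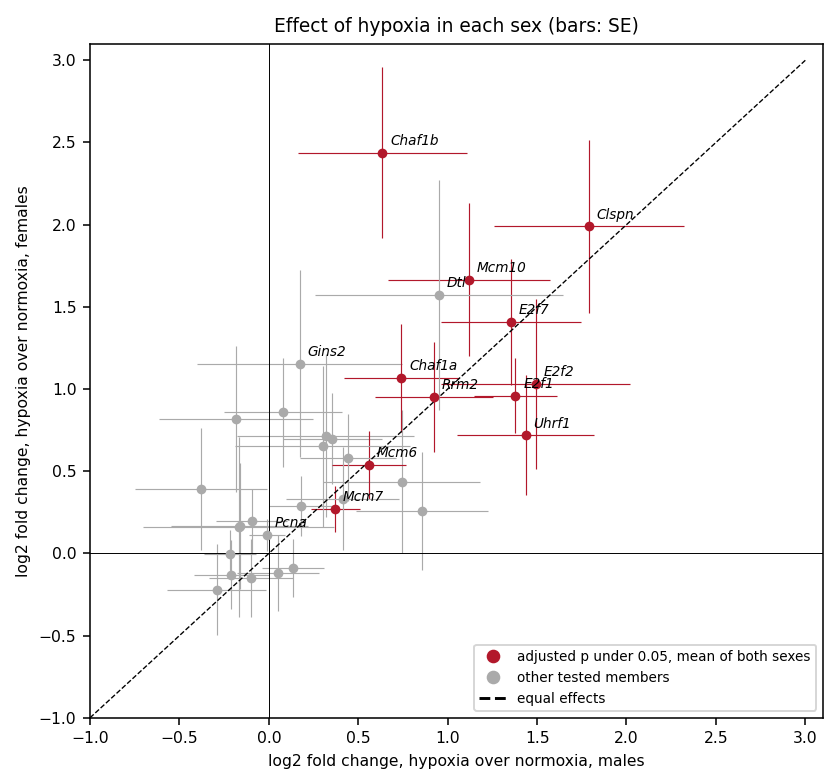
Log2 fold change in hypoxia over normoxia in females (y axis) against males (x axis), with SE bars, for the 34 tested members. Red points mark the 11 members that passed on average, and Chaf1b, at 2.44 in females and 0.64 in males, lies farthest from the dashed line of equal effects.

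Whether hypoxia acted differently in the sexes was tested as the female effect minus the male effect. No member passed with edgeR, DESeq2 or limma voom, and 1 of 13960 genes passed in edgeR (0.00716%). At an unadjusted p under 0.05 in edgeR there was 1 member of 34, against 6.79% of all genes. This member was Chaf1b, with a difference of 1.80 ± 0.70 (adjusted p = 0.718, 95% interval 0.27 to 3.34). For E2f1 the difference was −0.42 (−1.13 to 0.29) and for Clspn 0.20 (−1.44 to 1.85), and both intervals hold 0. Females against males gave no member in hypoxia (0.150% of all genes passed, and at an unadjusted p under 0.05 there were 0 members against 9.63% of all genes) and none in normoxia (0.0716%, with 2 members at an unadjusted p under 0.05 against 7.29% of all genes), by edgeR, DESeq2 and limma voom alike.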

How the data were processed

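Ventricular RNA of 12 mouse libraries was sequenced after stranded mRNA library preparation, per the labels' protocols. Per the submitters' processing notes, FastQC and Salmon were used with GRCm39. The sources used here give no version, annotation release or strand setting. The deposited columns are, per the file headers, estimated counts, abundances in TPM and mean effective transcript lengths for 12 libraries. 0 columns of per-sample values fell outside the map of columns to libraries.

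Estimated counts as deposited were rounded to whole numbers. Genes were named through a RefSeq and Ensembl symbol table, which matched 99.3% of identifiers. edgeR 4.0.16 (R 4.3.3) removed low counts with filterByExpr, scaled libraries by TMM and fitted 1 model of 4 groups with 8 residual degrees of freedom. Contrasts were tested two-sided with glmQLFTest, and adjusted p-values are Benjamini-Hochberg values over all 13960 genes tested, with a threshold of 0.05. SE was derived from the log2 fold change and F. CPM are counts scaled here to TMM-corrected library sizes. The deposited TPM values, which summed to 889905 to 926060 a library, served to compare genes with one another and, as log2(TPM + 0.1) with limma 3.58.1, as an alternative. DESeq2 1.42.0 and limma voom were also run. Deposited lengths entered 1 alternative as offsets.

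The members, the gene lists and the tests were chosen with earlier results of these data known. Named genes are the members and, in each other list, up to 4 that passed with the smallest adjusted p. Coordinates are those of RefSeq on GRCm38.p6, another build than that of the table, and were used for promoter windows alone. Counting error only is covered by the floor of 3 counts.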

Additional observations from a re-analysis of the deposited data

How the results depend on the processing

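The 11 members called on average were 9 with transcript length offsets (without Mcm7 and Clspn), 10 without a filter on low counts, 14 with DESeq2 (adding Mcm3, Tyms and Dtl), 12 with limma voom (adding Dtl) and 16 on log2 TPM, and 9 to 13 with 1 library left out. With male hypoxia libraries 2 and 3 left out there were 3, and also 3 with female normoxia library 3 left out as well. Males alone gave 4 members in the report, 1 with limma voom, 2 with length offsets, 8 on log2 TPM, 2 with the replicate block, 1 to 5 with 1 library left out, and 0 with male hypoxia libraries 2 and 3 left out, with or without female normoxia library 3. Females alone gave 3 in the report, 6 with DESeq2, 1 with length offsets, 1 with no filter, 5 with a stricter filter (1 CPM in every library of a group), 0 when only female libraries were fitted, 0 to 10 with 1 library left out, and 0 in both fits without male hypoxia libraries 2 and 3. In those fits the lone male hypoxia library is assumed to vary like the other groups. All genes called on average were 3896, against 1295 without male hypoxia libraries 2 and 3, 2329 without female normoxia library 3 as well, and 2685 to 4635 with 1 library left out. The 18 other replication genes called were 9 with length offsets, 30 on log2 TPM, 4 and 7 in the 2 fits without male hypoxia libraries 2 and 3, and 10 to 27 with 1 library left out. On log2 TPM the median of all genes shifted by 0.30, and 93.9% of calls were higher, against 53.9% in the count fit and 61.2% without male hypoxia libraries 2 and 3. There Orc3 reversed to 0.125, Dguok to 0.0996, Hat1 to 0.0724 and Tfam to 0.0275. The cause of these differences was not tested. The counts of 0 for the interaction and for females against males held under every alternative run.

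Same-numbered hypoxia and normoxia libraries of a sex did not deviate together (correlations of −0.05 to 0.03), and the main model used no pairing. A link of same-numbered libraries across the sexes was not examined. With the replicate block 11 members on average, 2 in males and 2 in females were called. Effective lengths of 19 members varied over 1.5-fold between libraries and those of 8 stayed within 1%, which bears on the length offsets. Orc1 and Mcm5 failed the filter on low counts and were not tested, and depth limits Dtl, E2f2, Mcm10, Clspn and Chaf1b, which rest on few counts a library.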
